A study of Arabidopsis thaliana with 27 samples.

Results

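The genes described here had their highest mean signal in *opr3* stamens at 8 h after jasmonate (JA), with a smaller difference at 2 h and a lower signal again at 22 h. They were chosen by their values, with M the group mean of log2(signal + 16): M at JA 8 h at least 1 above M in untreated stamens, M at JA 2 h less than 1 above it, M at JA 8 h at least 0.7 above M at JA 22 h, M at JA 22 h above M at OPDA 22 h minus 0.6, and a mean signal of at least 100 at JA 8 h. A difference of 1 on this scale is a doubling of signal + 16, so it understates the change of a dim gene. Of 22810 probe sets on the array, 396 met the first condition, 278 also the second, 49 also the third, 41 also the fourth and 33 all of them. The glucosyltransferase gene IAGLU was left out with the other UGT genes, JRG21 and GTR2, which left 32 members. All 32 passed the filter on dim probe sets that defined 14028 tested probe sets. That filter counted the JA 8 h arrays too, so the condition on the mean signal there largely set this. Of the 32 members, 19 are paired with a single gene, and 13 have no gene name here and are given by their probe set. The working description of these genes as back down by 22 h went against the data: at JA 22 h only 14 of 32 lay within 0.5 of untreated stamens, and 18 were still at least 0.5 above. They are therefore called the 8 h JA peak genes.

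The array measured RNA of stamens of *Arabidopsis thaliana* carrying the *opr3* mutation, which disrupts the reductase that turns 12-oxophytodienoic acid (OPDA) into the precursor of JA. Stage 12 flower buds had been given 0.03% methyl jasmonate, called JA in the sample titles, or 0.03% OPDA. *opr3* stamens were taken at 0.5, 2, 8 and 22 h after either compound, in 3 arrays per group, except that OPDA at 8 h has 2. The other groups were 3 arrays of untreated *opr3* stamens, which serve as time 0, and 1 array of stamens of Ws, the wild-type background. No group was mock treated at the later times, so time after treatment and the compound cannot be told apart in a comparison with untreated stamens. No label ties the arrays of a group to different plants, and the p-values rest on a spread between arrays that may be technical.

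JA is made from a fatty acid by way of OPDA, and its conjugate with isoleucine is bound by the receptor COI1. This leads to the breakdown of JAZ repressors and frees transcription factors such as MYC2 and, in stamens, MYB21 and MYB24. Without JA the stamens of Arabidopsis have short filaments, anthers that open late or not at all, and pollen of low viability, and applied JA restores fertility to *opr3* buds.

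Several arrays stood apart. Replicates 1 and 2 of JA 0.5 h had identical values at every probe set and were counted as 1 sample, so JA 0.5 h has 2 values. Replicate 3 of JA 2 h is titled *opr2* and was kept with its group: without it the choice gave 32 members, all 32 of them shared. The labelled tissue could not be checked with stamen identity genes, since 0 of 6 are named on the array. Of 7 pollen marker genes, 5 are named, and their summed signal was 1617 to 4300 at JA 8 h, 5003 to 8610 at JA 22 h and 2764 to 6440 at OPDA 22 h, against 1038 to 2015 in untreated stamens and 4305 in Ws. Of 13 tapetum markers, 3 are named, and their summed signal was 35.3 to 389 at JA 8 h, 14.0 to 36.7 at JA 22 h and 28.7 to 92.7 at OPDA 22 h, against 189 to 709 in untreated stamens and 875 in Ws. ATA27 averaged 454 in untreated stamens, 127 at JA 8 h and 5.03 at JA 22 h, when it was dimmer than AMS at 15.9. Only ATA27 of these 3 was bright enough to be tested. AMS averaged 40.6 and AT5G07230 3.97 in untreated stamens, so the higher tapetum sums are mostly ATA27. The 3 named green tissue markers of 5 summed to 1298 to 1975 at JA 8 h, 1045 to 1153 at JA 22 h and 1848 to 2018 at OPDA 22 h, against 1816 to 2042 in untreated stamens and 1530.0 in Ws. All 3 green tissue markers were called lower at JA 22 h than at JA 8 h in limma, as were 12.1% of all tested probe sets. The members also differ in that direction between those times. Between JA 8 h and untreated stamens 0 of the 3 were called, with a median of -0.22, whereas the members were higher. At JA 22 h against JA 8 h, 4 of 5 pollen markers were called higher, with 8.13% of all tested probe sets, and the 1 tested tapetum marker was called lower. In such bulk samples, fewer cells of a type and less RNA per cell cannot be told apart.

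**Figure D1:**
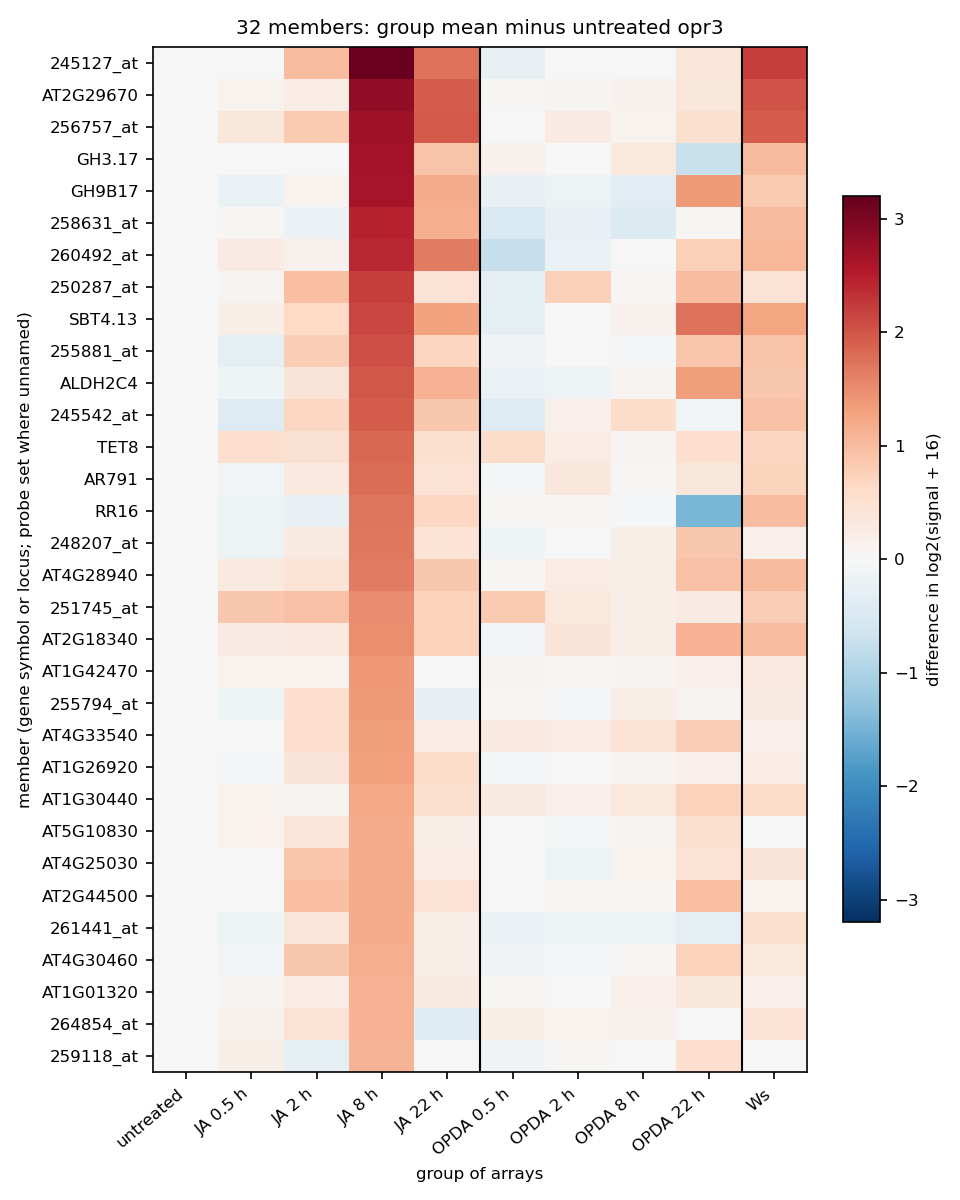
Group mean of log2(signal + 16) minus that of untreated *opr3* stamens, for the 32 members (rows, by the size of the difference at JA 8 h) in 10 groups (columns). The JA 8 h column is the darkest in every row, the OPDA 0.5, 2 and 8 h columns lie between -0.74 and 0.84, and the JA 22 h, OPDA 22 h and Ws columns are mostly positive.

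Over the 32 members, the difference between JA 8 h and untreated stamens ran from 1.08 to 3.17 with a median of 1.68, where the median of all tested probe sets was -0.10. All 3 JA 8 h arrays lay above all 3 untreated arrays in 32 of 32 members and in 9.2% of all tested probe sets, which the choice of members sets. All 3 JA 22 h arrays lay below all 3 JA 8 h arrays in 31 of 32 members and in 20.3% of all tested probe sets, and the exception was AT4G28940. For that gene the signals were 52.6, 90.5 and 56.8 at JA 22 h, against 84.1, 206 and 111 at JA 8 h. Every member was highest at JA 8 h of all 10 groups, of which the choice had used 5. Without untreated replicate 3, whose pollen marker sum was the highest of its group and whose tapetum sum was the lowest, the choice gave 29 members, 26 of them shared, and the median difference of the 32 was 1.71. Without JA 8 h replicate 2, which had the highest pollen marker sum at 8 h, it gave 30 members, 28 of them shared, and the median of the 32 was 1.53. The part of pollen, tapetum or green tissue RNA in these differences was not tested.

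GH3.17 (AT1G28130, probe set 259596_at) encodes an enzyme that joins the auxin indole-3-acetic acid to glutamate and so takes it out of the active pool. Its signal was 766, 729 and 891 at JA 8 h, against 129, 116 and 92.2 in untreated stamens, a difference of 2.67. At JA 2 h it was 90.7, 101 and 147, and these arrays overlapped the untreated ones. At JA 22 h it was 293, 128 and 292, with replicate 2 alone near the untreated level, and the difference of 1.76 between JA 8 h and JA 22 h was the largest of all members. After OPDA the signal was 141 and 148 at 8 h and 86.4, 50.3 and 54.5 at 22 h, and all 3 OPDA 22 h arrays lay below all 3 untreated arrays. Ws stood at 239. At the other times the arrays held 86.2 and 142 at 0.5 h after JA, and 118, 114.5 and 141 at 0.5 h and 106.5, 89.3 and 137 at 2 h after OPDA, overlapping the untreated range.

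GH3.17 was 1 of 11 auxin response genes named on the array, and 1 of 3 bright enough to be tested. GH3.3, which conjugates the same auxin to other amino acids, averaged 897 at JA 22 h and 25.0 at JA 8 h. That difference of 4.44 (95% interval 3.77 to 5.12) had an adjusted p of 1.7e-09 in limma's moderated test, with Benjamini-Hochberg adjustment over all tested probe sets, where 8.13% were called higher and 12.1% lower. Between JA 8 h and untreated stamens GH3.3 differed by 0.70 (0.02 to 1.37, adjusted p = 0.19), and 4.77% of tested probe sets were called higher and 5.26% lower. Of the JA times sampled, GH3.17 was highest at 8 h and GH3.3 at 22 h. IAA18, an auxin-responsive repressor gene, differed by -0.42 between JA 22 h and JA 8 h (adjusted p = 0.076). IAGLU, whose product also acts on auxin by adding glucose to it, met every value condition before it was left out. Its difference was 1.19 at JA 8 h and 0.29 at JA 22 h.

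RR16 (266078_at) is a type-A response regulator, a family that cytokinin induces and that dampens cytokinin signalling. It is shown by array because of its place at OPDA 22 h, a choice made after its values were seen. The signal was 859.5, 865 and 719 at JA 8 h, against 334, 334 and 117 in untreated stamens, so untreated replicate 3 was far below its group. The difference of 1.71 became 1.24 without that replicate. At JA 22 h the signal was 525.5, 324 and 338, of which replicate 2 lay below the 2 higher untreated arrays, and the difference from untreated was 0.67 with and 0.20 without untreated replicate 3. OPDA 22 h gave 81.4, 100.1 and 53.5, below every untreated array and below all OPDA arrays of the earlier times, which held 185 to 336. RR16 and GH3.17 were the 2 members that lay at least 0.5 below untreated at OPDA 22 h, with differences of -1.46 and -0.70. Ws stood at 483 for RR16, nearest to the highest JA 22 h array.

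**Figure D2:**
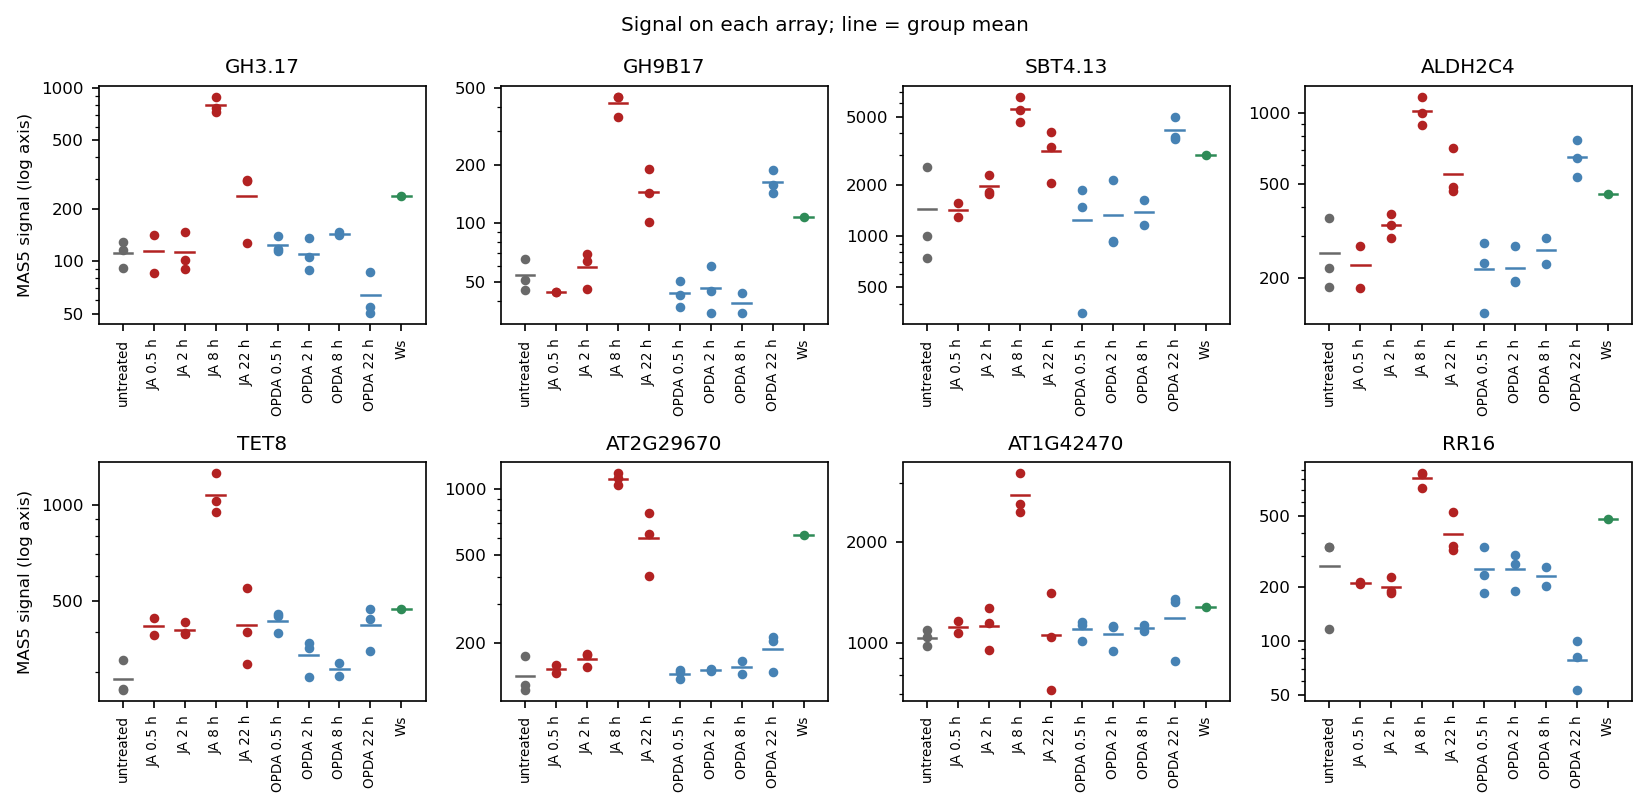
MAS5 signal (log axis) of 8 members on each array, grouped by treatment and time. Points are arrays, lines are group means, and colours mark untreated (grey), JA (red), OPDA (blue) and Ws (green): the JA 8 h mean is the highest in each panel, while OPDA 22 h is high for SBT4.13 and ALDH2C4 and low for GH3.17 and RR16.

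Another pair of named members, GH9B17 and SBT4.13, belong to families of enzymes that act in the cell wall space. GH9B17 (252920_at) is a glycosyl hydrolase of the family that holds the plant endo-beta-1,4-glucanases, which cut cellulose and related wall glucans. Its signal was 352.5, 447 and 449 at JA 8 h, against 45.1, 50.9 and 65.5 in untreated stamens, a difference of 2.63. It was 69.3, 45.9 and 63.8 at JA 2 h, so 2 h arrays overlapped the untreated ones. At 22 h it was 191, 101.5 and 144 after JA and 143, 187 and 158 after OPDA, and the arrays of both compounds lay above every untreated array. At 8 h after OPDA it was 43.6 and 34.4, below all untreated arrays, and Ws stood at 107. Earlier arrays held 44.0 and 44.5 at 0.5 h after JA, and 37.2, 50.7 and 42.7 at 0.5 h and 44.9, 34.4 and 60.6 at 2 h after OPDA, so none was above the untreated range.

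Other GH9 genes followed other courses. Of 9 other tested GH9 genes, a family chosen after the values were seen, 1 was called higher (GH9C2) and 1 lower (GH9B18) at JA 8 h against untreated stamens. GH9C2 averaged 539 at JA 8 h and 296 in untreated stamens (0.83, adjusted p = 0.0072), and it already stood at 508 at JA 2 h. Between JA 22 h and JA 8 h, 3 of the 9 were called higher and 1 lower. GH9B11 averaged 376 at JA 22 h and 11.7 at JA 8 h (3.78, adjusted p = 6.2e-07), and GH9A4 averaged 1160.0 and 251 (2.39, adjusted p = 0.0031). GH9B17 was the 1 GH9 gene among the members.

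SBT4.13 (247758_at) is a subtilase, a secreted serine protease of a family that cuts proteins in the wall space. It was the brightest member, at 4656.5, 6568 and 5486.5 at JA 8 h, against 737, 1005 and 2555 in untreated stamens. Untreated replicate 3 stood far above the other untreated arrays, and the difference of 2.14 became 2.66 without it. At 22 h the signal was 4070.5, 2038 and 3326 after JA and 3729, 5023 and 3800.1 after OPDA, and the highest OPDA 22 h array lay above the lowest JA 8 h array. Its differences from untreated at 22 h were 1.28 after JA and 1.73 after OPDA, the largest OPDA 22 h difference of any member. The JA arrays of the earlier times held 1284 and 1560.0 at 0.5 h and 1755, 1806 and 2293 at 2 h, inside the wide untreated range, and Ws stood at 2999. Of the 3 other tested subtilase genes, 0 were called at JA 8 h against untreated stamens and 0 between JA 22 h and JA 8 h.

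ALDH2C4 (258140_at) oxidises coniferaldehyde and sinapaldehyde to ferulic and sinapic acids, a step of phenylpropanoid metabolism. Its signal was 890.2, 1172 and 997 at JA 8 h, against 182, 221 and 359.7 in untreated stamens. At 22 h it was 709.7, 467 and 484 after JA and 643, 771 and 536 after OPDA, and all 6 arrays lay above the untreated ones. The differences from untreated were 1.98 at JA 8 h, 1.10 at JA 22 h and 1.34 at OPDA 22 h, while OPDA 8 h gave 0.09. ALDH2C4 arrays of the earlier times held 181 and 273 at 0.5 h and 297, 334 and 371.5 at 2 h after JA, and 142, 282.5 and 230.3 at 0.5 h, 193, 194 and 273 at 2 h and 230.2 and 296 at 8 h after OPDA. These arrays overlapped the untreated ones, and Ws stood at 455. Of 7 other tested aldehyde dehydrogenase genes, 0 were called higher at JA 8 h and 1 lower (ALDH11A3, -0.59, adjusted p = 0.025). Between JA 22 h and JA 8 h, 3 of the 7 were called lower and 0 higher.

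TET8 (267293_at) is a tetraspanin, a membrane protein known in Arabidopsis as a marker of extracellular vesicles. Its signal was 1023, 1252 and 946 at JA 8 h, against 327.5, 265 and 265.5 in untreated stamens, a difference of 1.85. It stood above all untreated arrays at 0.5 h after either compound, at 392 and 443 after JA and 399, 455 and 448 after OPDA. JA 2 h arrays held 429, 395 and 398, and OPDA arrays held 289, 357 and 369 at 2 h and 292 and 320.2 at 8 h. The OPDA 2 h minus OPDA 0.5 h difference was -0.35 (-0.69 to -0.01), with an unadjusted p of 0.043 and an adjusted p of 1 in the limma fit. At 22 h TET8 was 548, 319 and 399 after JA and 440.3, 472 and 349 after OPDA. Ws stood at 471, near the highest OPDA 22 h array. Of 8 other tested tetraspanin genes, 0 were called higher at JA 8 h and 1 lower (TET3, -0.94, adjusted p = 0.00049), and 3 were called lower between JA 22 h and JA 8 h. The only other member at least 0.5 above untreated at 0.5 h was 251745_at, at 0.85 after JA and 0.84 after OPDA.

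The 13 other named members are known here by locus, or as AR791, with no role in the annotation used. AT2G29670 (266617_at) had the largest difference of any named member, 2.85. It stood at 123, 129 and 175 in untreated stamens, 178, 176 and 155 at JA 2 h and 1115, 1176 and 1045 at JA 8 h, and the 2 h arrays overlapped the untreated ones. At 22 h it held 778, 403 and 623 after JA and only 212, 203 and 147 after OPDA. The JA 22 h arrays, 67.8% of the way up on the log2 scale, lay above all OPDA 22 h arrays, and Ws stood among them at 615. The arrays not used in the choice held 146 and 159 at 0.5 h after JA, and 138, 150.1 and 148 at 0.5 h, 149.5, 151 and 152 at 2 h and 166 and 144 at 8 h after OPDA, all inside the untreated range. AT1G42470 (262264_at) followed another course, with 1087, 1039 and 978 in untreated stamens, 2594, 3201 and 2454.5 at JA 8 h and 1405, 723 and 1039.6 at JA 22 h. Its mean was back at the untreated level (-0.02, and 0.22 without JA 22 h replicate 2), with JA 22 h arrays on either side of the untreated ones. Its 3 JA 8 h arrays stood above every other array. AT1G42470 held 1163 and 1069 at JA 0.5 h, 951, 1271 and 1146 at JA 2 h, 1352, 1322 and 881 at OPDA 22 h and 1281 in Ws. After OPDA it held 1014, 1150.5 and 1127 at 0.5 h, 944, 1109.9 and 1121 at 2 h and 1083 and 1129.9 at 8 h.

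Among the other 11, AR791 had the largest difference at JA 8 h, at 1.80, with 243, 273 and 250.2 at JA 8 h, against 53.8, 66.5 and 66.5 in untreated stamens. At JA 22 h its difference was 0.46. AT4G28940 followed with 1.67 and AT2G18340 with 1.48. For AT2G18340 the arrays held 354, 645 and 354 at JA 8 h, against 78.3, 162 and 229.6 in untreated stamens, and replicate 2 stood well above the other JA 8 h arrays. Its difference at OPDA 22 h was 1.11, higher than the 0.73 at JA 22 h. The other 8, AT4G33540, AT1G26920, AT1G30440, AT5G10830, AT4G25030, AT2G44500, AT4G30460 and AT1G01320, had differences of 1.12 to 1.33 at JA 8 h. At JA 22 h these 8 were 0.19 to 0.58 above untreated, with AT1G26920 and AT1G30440 the 2 at or above 0.5. The named members lay on all 5 chromosomes, with 6, 5, 1, 5 and 2 genes on chromosomes 1 to 5, and the closest pair, GH3.17 and AT1G26920, were 155 genes apart in the TAIR10.1 annotation of RefSeq.

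The 13 unnamed probe sets included the member with the largest difference of all. 245127_at stood at 3453, 4295 and 3295 at JA 8 h, against 319.9, 340.5 and 546 in untreated stamens, 9.03 times on the signal + 16 scale. It was also the member nearest to the limit at 2 h, at 685, 924.5 and 789.6, with a difference of 0.99. At 22 h it held 1638, 1003 and 1445 after JA and 492, 478 and 599 after OPDA, so all JA arrays were above all OPDA arrays, and Ws stood at 1855. At the times not used in the choice 245127_at held 371 and 422 at 0.5 h after JA, and 284.5, 350.0 and 361 at 0.5 h, 359, 410.0 and 400.3 at 2 h and 358 and 424 at 8 h after OPDA, all below the highest untreated array. 256757_at was dimmer, with 33.7, 23.1 and 37.5 in untreated stamens, 280.4, 304 and 301 at JA 8 h and 176, 175.5 and 154 at JA 22 h. OPDA 22 h gave 44.4, 76.5 and 39.4, below every JA 22 h array. It kept the largest part of its difference at JA 22 h, 72.4% on the log2 scale. For 256757_at the earlier arrays held 48.5 and 40.4 at 0.5 h and 80.6, 60.9 and 65.5 at 2 h after JA, and 31.5, 25.8 and 36.9 at 0.5 h, 29.6, 39.5 and 54.0 at 2 h and 40.4 and 30.4 at 8 h after OPDA, and Ws stood at 165. The 3 JA 2 h arrays were thus already above every untreated array. 260492_at kept 69.6%, with 17.5, 20.1 and 23.9 in untreated stamens, 169.9, 187 and 173 at JA 8 h and 136, 88.5 and 82.3 at JA 22 h. It was dim at the earlier times, at 33.3 and 22.6 at 0.5 h and 27.2, 28.1 and 17.0 at 2 h after JA, and 5.6, 7.9 and 4.2 at 0.5 h, 27.9, 15.5 and 6.0 at 2 h and 29.8 and 13.4 at 8 h after OPDA. OPDA 22 h gave 44.6, 77.1 and 26.7 and Ws 60.4, all above the untreated arrays. 258631_at held 145, 164 and 137 at JA 8 h, against 13.3, 15.1 and 13.7 in untreated stamens, where it was dim. 258631_at held 86.9, 31.8 and 45.0 at JA 22 h, against 7.3, 30.5 and 10.6 at OPDA 22 h and 44.5 in Ws. At the earlier times it held 23.2 and 9.0 at 0.5 h and 14.9, 9.7 and 6.9 at 2 h after JA, and 3.2, 4.9 and 8.4 at 0.5 h, 6.0, 9.2 and 13.7 at 2 h and 3.3 and 9.9 at 8 h after OPDA, every one under the signal of 50 used to filter dim probe sets.

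Other unnamed members came closer to the untreated level at JA 22 h. 250287_at held 26.8, 36.9 and 90.0 in untreated stamens, 246, 311 and 261 at JA 8 h and 70.0, 55.8 and 85.9 at JA 22 h. Its difference of 1.75 between JA 8 h and JA 22 h was second only to that of GH3.17, and the JA 22 h arrays lay inside the untreated range. For 250287_at the earlier arrays held 46.7 and 54.4 at 0.5 h and 87.8, 96.2 and 135 at 2 h after JA, and 13.8, 47.1 and 53.9 at 0.5 h, 63.1, 97.1 and 112 at 2 h and 42.1 and 54.2 at 8 h after OPDA. Its OPDA 22 h arrays held 82.7, 115.5 and 129, and Ws stood at 68.9, inside the untreated range. 255794_at stood at 226, 279 and 207 in untreated stamens, 522, 833 and 580.1 at JA 8 h and 210.0, 165.5 and 209 at JA 22 h. 264854_at stood at 274, 229.5 and 282 in untreated stamens, 555, 505 and 686 at JA 8 h and 256, 132.5 and 213 at JA 22 h. Relative to untreated stamens, 255794_at (-0.26) and 264854_at (-0.40) were the lowest members at JA 22 h. For 255794_at the earlier arrays held 196 and 229.7 at 0.5 h and 349.7, 335 and 371 at 2 h after JA, and 316, 223 and 212 at 0.5 h, 245, 249 and 192 at 2 h and 231 and 330.0 at 8 h after OPDA. It stood at 260.3, 196 and 302 at OPDA 22 h and at 292.5 in Ws, and Ws lay above all JA 22 h arrays. The earlier arrays of 264854_at held 236 and 354 at 0.5 h and 299, 338.5 and 479 at 2 h after JA, and 302, 293 and 323.5 at 0.5 h, 255, 231 and 379.7 at 2 h and 270.5 and 307 at 8 h after OPDA. It stood at 268, 240.5 and 285 at OPDA 22 h and at 357 in Ws, and here too Ws lay above all JA 22 h arrays. 255881_at was steadier, with 163, 203 and 209.8 in untreated stamens, 938, 823.5 and 809.8 at JA 8 h and 414, 294 and 264 at JA 22 h. Its earlier arrays held 161.5 and 146 at 0.5 h and 332, 353 and 330.4 at 2 h after JA, and 173, 206 and 152 at 0.5 h, 228, 148 and 203 at 2 h and 207 and 167 at 8 h after OPDA. It stood at 411, 429 and 287 at OPDA 22 h and at 375 in Ws, so both were above the untreated arrays. 245542_at held 171, 138 and 172 at JA 8 h, against 38.2, 43.9 and 13.9 in untreated stamens. 245542_at held 56.0, 72.7 and 77.4 at JA 22 h, against 50.4, 15.8 and 21.6 at OPDA 22 h and 71.7 in Ws. At the earlier times it held 8.8 and 32.4 at 0.5 h and 53.6, 71.2 and 47.4 at 2 h after JA, and 3.6, 33.4 and 26.8 at 0.5 h, 46.9, 22.4 and 39.9 at 2 h and 65.3 and 43.6 at 8 h after OPDA, so the JA 2 h arrays were all above the untreated ones. The remaining 4, 248207_at, 251745_at, 259118_at and 261441_at, had differences of 1.69, 1.51, 1.08 and 1.18 at JA 8 h and of 0.44, 0.74, 0.00 and 0.21 at JA 22 h.

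Members near a limit of the choice are named with the value there. Just inside the limit of 1 at JA 8 h were 259118_at (1.08) and 264854_at (1.10), and just outside, with the other conditions met, were 264000_at and AT3G02930 (0.99 each). At JA 2 h, 245127_at (0.99) and AT2G44500 (0.97) were inside and 261106_at (1.02) and 258610_at (1.09) outside. For the fall to JA 22 h, AT2G44500 (0.71) and AT1G26920 (0.73) were inside and 255561_at (0.66) and AT1G25520 (0.65) outside. For JA 22 h minus OPDA 22 h, 259118_at (-0.55) and AT4G33540 (-0.54) were inside and AT4G00750 (-0.63) and 254104_at (-0.67) outside. For the mean signal at JA 8 h, 251745_at (125) and AT4G28940 (134) were inside and AT1G26930 (97.8) and 252677_at (97.5) outside. AT1G26930 is the gene next to the member AT1G26920 in the annotation.

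At JA 2 h the members already stood a little above untreated stamens, with a median difference of 0.42 against -0.06 over all tested probe sets. Of the 32, 12 were at least 0.5 above untreated, against 3.96% of all tested probe sets, and 6 lay within 0.2 of it. The 3 JA 2 h arrays gave medians over members of 0.43 to 0.47, all taken against the same untreated mean. Both groups were used in the choice, so these values are descriptions. The highest were 245127_at, AT2G44500, 250287_at, 251745_at, AT4G25030, AT4G30460 and 256757_at, at 0.85 to 0.99. GH3.17, RR16, 258631_at and 259118_at were at -0.01 or lower.

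At JA 22 h the median difference from untreated was 0.55, with a range of -0.40 to 1.97, while the median over all tested probe sets was -0.21. The 8 members at least 1 above untreated were 256757_at, AT2G29670, 245127_at, 260492_at, SBT4.13, GH9B17, 258631_at and ALDH2C4. Together with another 10 that were 0.5 to 1 above, 18 of 32 members were at least 0.5 above untreated, against 12.8% of all tested probe sets, while 14 lay within 0.5 of untreated and 0 were 0.5 or more below it. The median share of the log2 difference left at 22 h was 36.65%, and 7 members kept over 50%. All 3 JA 22 h arrays lay above all 3 untreated arrays in 13 of 32 members and in 15.6% of all tested probe sets, a count added after the data were seen. The choice used both groups, so these counts are descriptions. Array by array, the median over members was 0.78, 0.37 and 0.49 at JA 22 h, against -0.12, -0.08 and 0.21 in untreated stamens. Replicate 1 was the highest JA 22 h array in 23 of 32 members and in 30.9% of all tested probe sets. Replicate 2 was the lowest in 21 members and in 39.2% of all tested probe sets.

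The arrays fall on several scan days, and the differences were set out within those that hold both groups. The choice used all of these groups, so the counts above 0 are descriptions that it largely sets. Shares over all tested probe sets were not counted within scan days. JA 8 h minus untreated had a median over members of 1.81 on scan day 4 (1 array against 2) and 1.39 on scan day 5 (1 array against 1), with 32 of 32 above 0 on each. JA 22 h minus untreated had medians of 0.56 and 0.29 on these days, with 26 and 25 of 32 above 0. JA 8 h minus JA 22 h had medians of 0.69, 1.40 and 1.09 on scan days 3, 4 and 5 (1 array against 1 each), with 32 of 32 above 0 on each. On scan day 3, which holds replicate 1 of both groups, 15 of 32 reached the limit of 0.7 used in the choice.

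**Figure D3:**
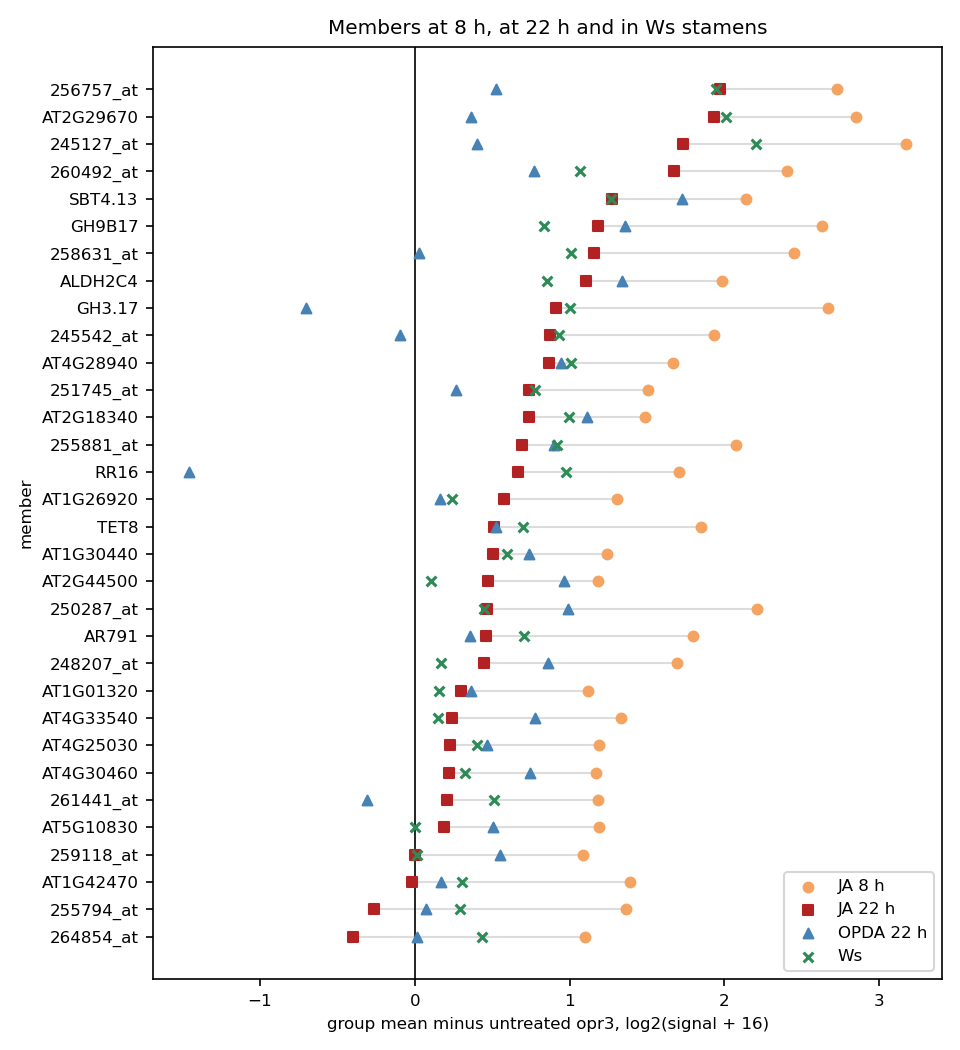
Difference of each member from untreated *opr3* stamens, log2(signal + 16), at JA 8 h (orange circles), JA 22 h (red squares), OPDA 22 h (blue triangles) and in Ws (green crosses), ordered by JA 22 h. Grey lines join JA 8 h and JA 22 h: 18 squares lie at 0.5 or higher, the Ws crosses lie close to the squares, and the triangles of RR16 and GH3.17 lie far to the left of theirs.

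After OPDA the 8 h peak was not seen. JA 8 h minus OPDA 8 h ran from 0.86 to 3.18 with a median of 1.41, and all 3 JA 8 h arrays lay above both OPDA 8 h arrays in 32 of 32 members and in 14.6% of all tested probe sets. JA 8 h was used in the choice, so these are descriptions. OPDA 8 h minus untreated ran from -0.43 to 0.60 with a median of 0.10, and 31 of 32 members and 96.6% of all tested probe sets lay within 0.5 of untreated. Nearly all of the array was thus as close, and the count is not particular to the members. The exception among them was 245542_at, at 65.3 and 43.6 at OPDA 8 h.

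OPDA 22 h, a group used in the choice and so described without a test, differed from the earlier OPDA times. Its difference from untreated had a median of 0.51 and a range of -1.46 to 1.73, with 17 of 32 members, and 8.3% of all tested probe sets, at least 0.5 above untreated. Those at least 1 above were the 4 members SBT4.13, GH9B17, ALDH2C4 and AT2G18340. All 3 OPDA 22 h arrays lay above all 8 arrays of OPDA 0.5, 2 and 8 h in 16 of 32 members and in 7.39% of all tested probe sets, a count added after the data were seen. On scan day 5 (1 array against 1) the median OPDA 22 h minus untreated was 0.17 with 7 members at 0.5 or above, and on scan day 4 (1 against 2) it was 0.65 with 23. The values differ by more than 1.5 times, and untreated replicate 3 is the scan day 5 array.

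At 22 h some members were higher after JA and others after OPDA, and the choice limits how far the second kind can go. The 9 that were at least 0.5 higher after JA than after OPDA were RR16, GH3.17, AT2G29670, 256757_at, 245127_at, 258631_at, 245542_at, 260492_at and 261441_at. For 259118_at, AT4G33540, 250287_at and AT4G30460, JA 22 h minus OPDA 22 h lay between -0.55 and -0.52, which the limit of -0.6 in the choice bounds. All tested probe sets held 9.15% that were at least 0.5 higher after JA. In all, 20 of 32 members were higher after OPDA than after JA at this time, a share near the 60.2% of all tested probe sets. That count was 16 without JA 22 h replicate 2, and 18 to 20 with any other array of these groups left out. TET8, at -0.02, was among the members that changed side, at 0.16 without that array.

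The 3 tested comparisons contrast only groups that the choice did not use. Their p-values come from limma fitted to the 25 distinct *opr3* arrays with Benjamini-Hochberg adjustment over 14028 probe sets. The estimate of the spread therefore also draws on the groups used in the choice. JA 0.5 h minus OPDA 0.5 h called 0 of 32 members, with 0.0713% of all probe sets called (10, all higher after JA). OPDA 2 h minus OPDA 0.5 h called 0 of 32 members and 0% of all probe sets. OPDA 8 h minus the mean of OPDA 0.5 h and OPDA 2 h called 0 of 32 members and 0% of all probe sets. At an unadjusted p under 0.05 the counts of members were 1, 4 and 1, against 316 (2.25%), 409 (2.92%) and 494 (3.52%) of all tested probe sets. Same-numbered arrays of the compared groups tended to deviate together, with a median correlation of 0.33 (0.09 to 0.5). Arrays of other numbers had a median of -0.2 (-0.5 to 0.29). Deviations from a group mean sum to 0, which pushes these values the opposite way from the same-numbered ones, so the contrast adds no separate support. The main fits did not use this pairing. With the replicate as a block, OPDA 2 h minus OPDA 0.5 h called 9 probe sets and 0 members. Replicates 1 and 3 of these 2 groups also shared a scan day, so replicate number and scan day cannot be told apart there.

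The intervals bound what could have been missed. The upper 95% limit was under 1 for 27, 27 and 29 of 32 members in the 3 comparisons, and for 95%, 96.0% and 97.4% of all tested probe sets. Medians over the members were 0.02, 0.06 and 0.06, against 0, 0.01 and -0.02 over all. For GH3.17 the OPDA 8 h difference was 0.28 (-0.24 to 0.79), for GH9B17 -0.14 (-0.54 to 0.26) and for AT2G29670 0.06 (-0.30 to 0.42), each with an adjusted p of 1. For SBT4.13 it was 0.31 (-0.67 to 1.29), an interval that includes a doubling, with 1161 and 1616 at OPDA 8 h, against 351, 1862 and 1487 at OPDA 0.5 h and 931, 923 and 2141 at OPDA 2 h. The largest JA 0.5 h minus OPDA 0.5 h difference was that of 260492_at, 1.0 (0.38 to 1.61, adjusted p = 0.85), with 33.3 and 22.6 after JA and 5.6, 7.9 and 4.2 after OPDA, all dim. The largest OPDA 2 h difference was that of 250287_at, 1.04 (0.42 to 1.67, adjusted p = 0.82), with 63.1, 97.1 and 112 at 2 h, against 13.8, 47.1 and 53.9 at 0.5 h.

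**Figure D4:**
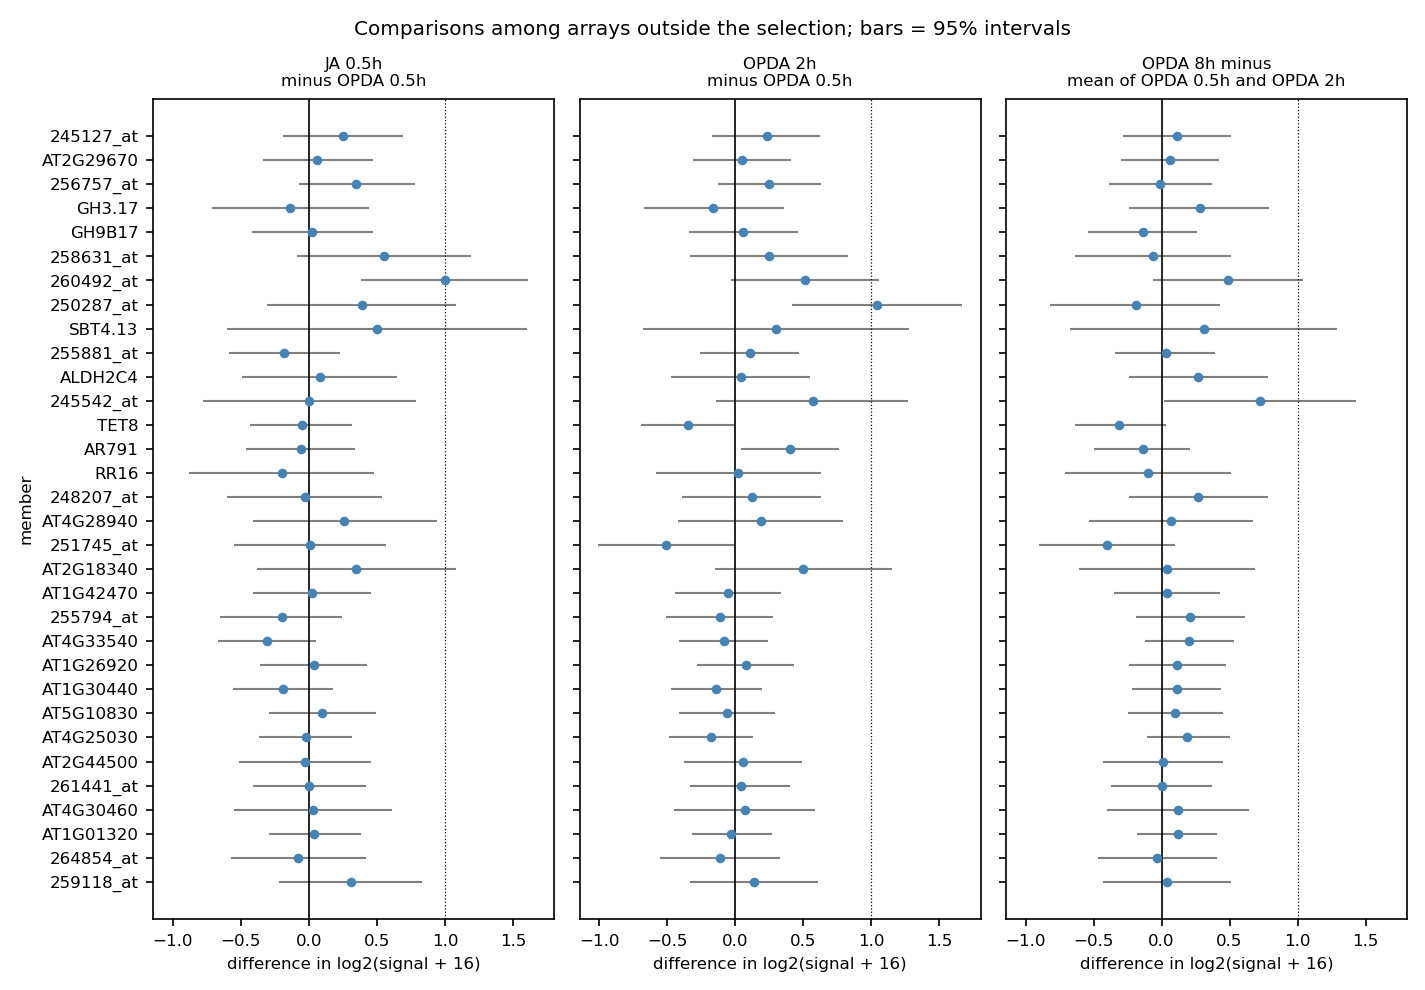
Differences in log2(signal + 16) with 95% intervals for the 32 members in the 3 comparisons among arrays that were not used to choose them. The dotted line marks a difference of 1: 27, 27 and 29 of the 32 intervals end below it, and none of the members was called.

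Untreated *opr3* stamens and Ws stamens can be set side by side on 1 Ws array only, with no test. Ws minus untreated *opr3* ran from 0.00 to 2.20 with a median of 0.70, against -0.14 over all tested probe sets, and 8 members and 5.28% of all tested probe sets were at least 1 higher in Ws. The *opr3* stamens of OPDA 0.5, 2 and 8 h, arrays not used in the choice, lay below the Ws array on all 8 arrays in 21 of 32 members and in 14.5% of all tested probe sets, a count added after the data were seen. *opr3* stamens at JA 22 h were close to Ws: 29 of 32 members differed by less than 0.5, with a median of 0.07 for Ws minus JA 22 h. Over all tested probe sets 82.1% did, with a median of 0.04, so most of the array was as close. Ws was nearer to JA 22 h than to untreated stamens in 25 of 32 members and in 56.9% of all tested probe sets. The 3 beyond 0.5 were 264854_at and 255794_at, higher in Ws by 0.83 and 0.56, and 260492_at, lower in Ws (-0.60). All 32 members, chosen for a high JA 8 h signal, were lower in Ws than in *opr3* stamens at JA 8 h, as were 53.6% of all tested probe sets.

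Within some groups 1 array was the highest or lowest for many members. Untreated replicate 3 was the highest untreated array in 22 of 32 members and in 32.3% of all tested probe sets. It was the lowest in 7 members, RR16 among them, and in 41.3% of all tested probe sets. For SBT4.13 and 250287_at it stood apart from both others. OPDA 0.5 h replicate 1 was the lowest of its group in 18 of 32 members and in 31.6% of all tested probe sets, with SBT4.13 at the low value given above and 245542_at at 3.6, against 33.4 and 26.8 on the other arrays. At JA 2 h no array led in this way, since the 3 were the highest in 10, 8 and 14 members, and in 35.4%, 35.4% and 29.1% of all tested probe sets. Untreated replicate 3 and OPDA 0.5 h replicate 1 also stood at opposite ends in the marker sums. Untreated replicate 3 had a pollen sum of 2015 and a tapetum sum of 189, against 1038 and 1065, and 709 and 598, on the other untreated arrays. OPDA 0.5 h replicate 1 had a pollen sum of 601 and a tapetum sum of 1171, against 1503 and 1067, and 321 and 358. The part of these markers in the members' spread was not tested. Ws, whose members were near those of JA 22 h, had a pollen sum of 4305 and a tapetum sum of 875.

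**Figure D5:**
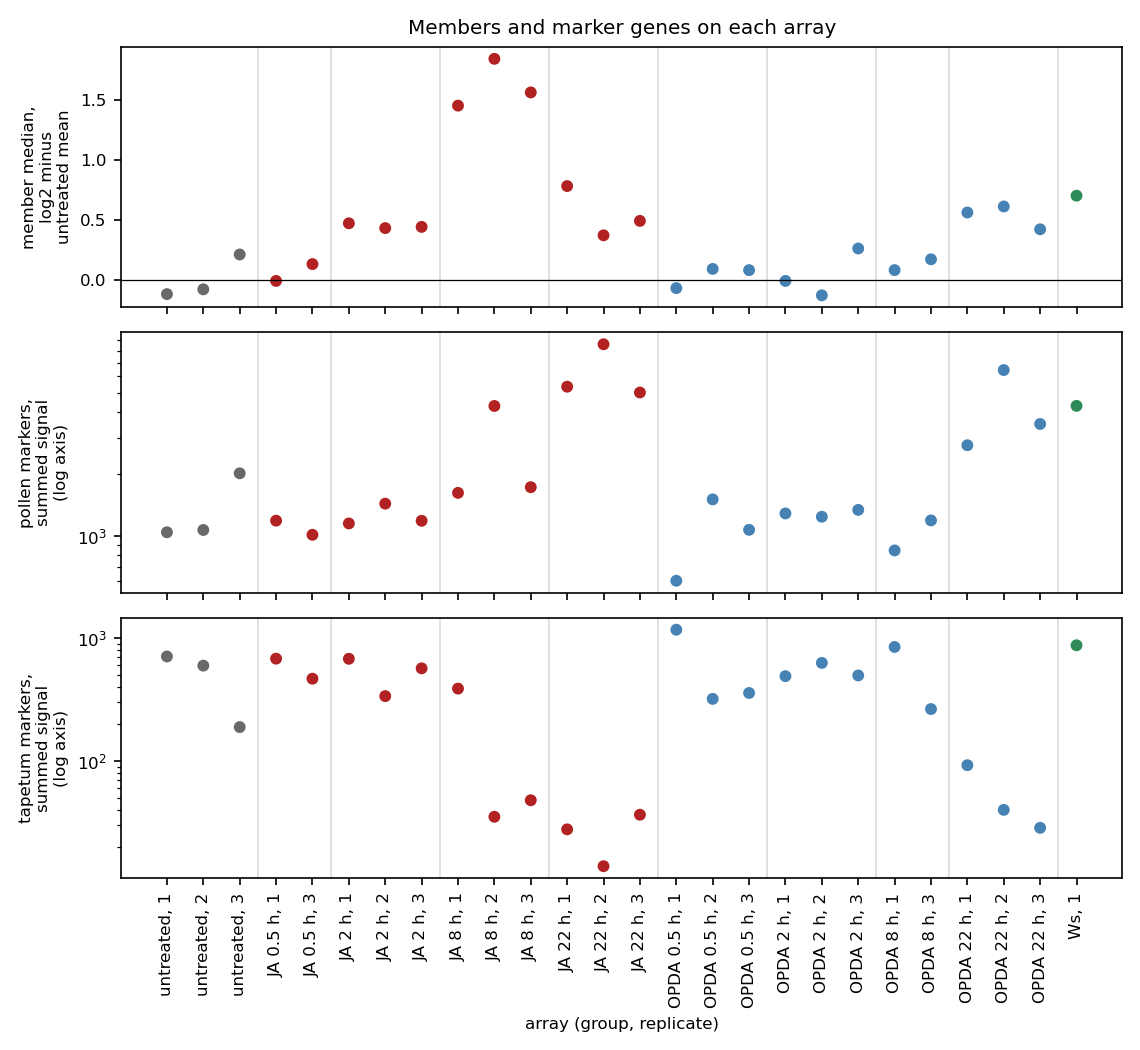
Median over the 32 members of log2(signal + 16) minus the untreated mean (top), and summed signal of 5 pollen markers (middle) and 3 tapetum markers (bottom, both log axes), for each of the 26 distinct arrays. Members peak at JA 8 h (1.45, 1.84 and 1.56), while pollen sums are highest at JA 22 h and tapetum sums fall below 100 on 8 of the arrays at JA 8 h, JA 22 h and OPDA 22 h. Of the 3 tapetum markers only ATA27 was bright enough to be tested.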

How the data were processed

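RNA of stamens was measured on 27 Affymetrix ATH1 arrays, 1 per sample. The deposited values are linear MAS5 signal intensities that the authors had brought to a target of 125 on each array, per the labels and the submitters' processing notes. The version of MAS5, its background step and its detection calls are not given in the sources used here. The scanner records, deposited as other values, were read for scan day and chip lot alone. For OPDA 8 h replicate 1 and Ws they were not used here.

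Signals were set on the log2(signal + 16) scale with no further normalization. Arrays with identical values were counted once, which left 26 arrays. limma 3.58.1 in R 4.3.3 was fitted with a mean per group and an intensity trend to the 25 *opr3* arrays, for the 14028 probe sets that reached a signal of 50 on 2 or more arrays. P-values were adjusted by Benjamini-Hochberg over all of them, with a threshold of 0.05. Contrasts of untreated, JA 2 h, JA 8 h, JA 22 h or OPDA 22 h arrays chose the members, so the members are described there without a test, and calls on them are given for other genes only. The fit was tested on simulated data. Precision is limited by how many arrays each group has.

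The members and gene lists were chosen with earlier results of these data known, and IAGLU was left out as a UGT gene after its values were seen. Members paired with 1 gene are named, and values of every array are given for the 12 with the largest difference at JA 8 h, the 6 brightest, the 6 with the largest fall to JA 22 h and those in a gene list. RR16 and a few others are shown by array beyond that rule, chosen after their values were seen. Of 22810 probe sets, 8794 carry no gene here, 503 carry several and 13513 carry 1, of which 13436 were matched to RefSeq. Same-numbered arrays of OPDA 2 h and OPDA 0.5 h deviated together, with correlations of 0.23, 0.11 and 0.45 for the 3 pairs. Those of OPDA 8 h correlated at 0.5 and 0.46 with OPDA 0.5 h, and at 0.29 and 0.33 with OPDA 2 h. For JA 0.5 h and OPDA 0.5 h the values were 0.09 and 0.44. The JA 0.5 h array counted as replicate 1 is identical to replicate 2, and it correlated at 0.29 with OPDA 0.5 h replicate 2, so its number is uncertain. Alternatives covered the pseudocount, filter, scaling, blocks, thresholds and each array left out in turn. Promoter motifs were not searched.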

Additional observations from a re-analysis of the deposited data

Results flagged for a closer look

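For the GH9 glycosyl hydrolase gene GH9B17 at 8 h, every JA array lay above and every OPDA array below all untreated arrays, and JA 8 h minus OPDA 8 h was 2.97 on the log2(signal + 16) scale. The OPDA 8 h arrays held 43.6 and 34.4, against 45.1, 50.9 and 65.5 in untreated stamens, so all but 2 of these were under the signal of 50 used to filter dim probe sets. Such a place was not limited to OPDA 8 h. Both JA 0.5 h arrays of GH9B17, at 44.0 and 44.5, also lay below all untreated arrays. Its lowest OPDA 0.5 h and 2 h arrays held 37.2 and 34.4. The share of all tested probe sets with this order at 8 h was not counted. The probe set 258631_at had the same order at 8 h, with a difference of 2.88. It held 3.3 and 9.9 at OPDA 8 h, against 13.3, 15.1 and 13.7 in untreated stamens. All of these are dim, with no detection call here, so their order and the size of 2.88 rest on signals that may be background. The difference between the compounds was not tested, because JA 8 h was used to choose the members.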

How the results depend on the processing

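The choice gave 32 members, and 21 with a pseudocount of 64, 17 with a fall of at least 1 to JA 22 h, and 14 with the mean back within 0.5 of untreated at JA 22 h, an alternative added after the data were seen. Leaving out 1 array at a time gave 25 to 41, and 14 of the 32 were kept in every one of these. JA 0.5 h minus OPDA 0.5 h called 10 probe sets, 3 when only the compared groups were fitted and 30 when the identical arrays were kept as separate samples. Without JA 0.5 h replicate 1 it called 5 and without replicate 3 it called 18, the lowest and highest of the runs that left out 1 array. OPDA 2 h minus OPDA 0.5 h called 0 probe sets, 5 with a pseudocount of 64, 2 with the identical arrays kept, and 0 to 2 with an array left out. With the replicate number as a block it called 9, and with the block the JA 0.5 h and OPDA 8 h comparisons called 12 and 0. OPDA 8 h minus the earlier OPDA times called 0 probe sets, and 1 with a pseudocount of 1 or with no filter. The count of members called was 0 in every alternative run of these 3 comparisons. The number at least 0.5 above untreated was 18 at JA 22 h (12 with a pseudocount of 64 to 22 with a pseudocount of 1) and 17 at OPDA 22 h (12 to 19). The number at least 0.5 higher after JA than after OPDA at 22 h was 9 (8 to 11), and 29 (26 to 31) lay within 0.5 of Ws at JA 22 h. JA 8 h minus untreated, which the choice required to be at least 1, was 0.83 or more for all 32 members under every alternative run. JA 22 h minus untreated, near 0 for AT1G42470 (-0.02), was 0.10 with 75th percentile scaling, 0.17 with median centring, 0.01 without untreated replicate 1 and 0.22 without JA 22 h replicate 2, and for 261441_at it was -0.01 without JA 22 h replicate 1. The number higher after OPDA than after JA at 22 h was 20 (16 to 20 with an array left out). For the dim 258631_at, JA 8 h minus untreated was 1.44 with a pseudocount of 64 and 3.31 with a pseudocount of 1.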
